A study of Homo sapiens with 9 samples.

Results

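Transcript levels of 10 genes of serine, one-carbon and asparagine synthesis were followed in ARPE-19 cells, an established human retinal pigment epithelial line, given vehicle or cigarette smoke condensate. The genes were taken by symbol and are PHGDH, PSAT1, PSPH, SHMT1, SHMT2, MTHFD1, MTHFD2, ASNS, CTH and CBS. A probe set naming no other gene measured 9 of the 10, among 14207 genes measured in this way. PSPH lay only on a probe set shared with NUPR2 and is not reported, and a further probe set that MTHFD2 shares with SLC4A5 was not used.

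The 9 arrays fall into 3 groups of 3, which are vehicle control, 100 µg/ml condensate and 250 µg/ml condensate. All cells were grown in serum until confluent and then kept in medium with albumin in place of serum. The condensate was a commercial DMSO stock made from the smoke of standard research cigarettes, and the sources used here do not give the length of the exposure. The study's title concerns oxidative stress, damage to mitochondria and a protective unfolded protein response. The arrays are numbered 1 to 3 in each group. Nothing in the labels ties the numbers to separate cultures, and the p-values therefore reflect the spread of these samples, possibly a technical one. RNA came from whole cultures, in which fewer cells of a type and less RNA per cell cannot be told apart.

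Serine is made from a glycolytic intermediate in a short chain of steps that PHGDH starts, PSAT1 continues and PSPH completes. Serine hydroxymethyltransferases then pass one carbon unit from serine to folate, and the folate enzymes MTHFD1 and MTHFD2 interconvert that unit for nucleotide and methyl group synthesis. Asparagine is made from aspartate by ASNS, while CBS and CTH carry sulfur from homocysteine to cysteine, a precursor of glutathione. Several of these genes, among them PSAT1, PHGDH, MTHFD2 and ASNS, are known targets of ATF4, the transcription factor that the PERK arm of the unfolded protein response and other stress kinases turn on. In retinal pigment epithelium, serine synthesis is known to feed glutathione, which protects the cells from oxidants.

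Values are log2 summaries of probe sets, so a difference of 1 is a 2-fold difference. They compare a gene between arrays and not 1 gene with another. Over all 17629 probe sets, the array medians lay between 4.42 and 4.59 and the lower quartiles between 2.89 and 3.10. The markers below were set against a different cut-off, the lower quartile of the 14207 genes on each array. Most genes of an array lie above that cut-off by definition, so a place above it is not by itself a sign of a cell type. Of 14 measured markers of retinal pigment epithelium, 7 lay above the lower quartile on all 9 arrays, among them OTX2, MITF, KRT8 and KRT18. The defining markers RPE65 and BEST1 lay below it on all 9, as did TTR and CDH1 of the same list. Of 5 leukocyte markers, CD68 (8.31 to 10.09), CD14 (3.58 to 3.96) and CD3E (3.37 to 4.04) lay above the lower quartile on all arrays, and the defining marker PTPRC (2.52 to 2.84) below it on all. Of 5 endothelial markers, 4 were below it throughout and none above it throughout. Of 7 fibroblast markers, 4 were above it throughout and 3 (DCN, LUM and THY1) below it. COL1A1, a collagen gene, stood at 6.55 on control replicate 2 and between 3.50 and 3.75 on the other 8 arrays. The growth factor receptor gene PDGFRB stood at 8.30, 8.41 and 6.88 in the controls numbered 1 to 3, then at 6.17, 6.18 and 8.23 at 100 µg/ml, and then at 6.24, 6.57 and 7.81 at 250 µg/ml. It was thus high on replicate 3 of each dose. The fibroblast list was below vehicle for 7 of 7 genes at 100 µg/ml and 6 of 7 at 250 µg/ml, with 0 past the threshold. Of all genes, 40.8% were above vehicle at the lower dose and 42.7% at the higher. The other marker lists were mostly below vehicle at 100 µg/ml too. This held for 12 of 14 pigment epithelium, 4 of 4 photoreceptor, 4 of 5 Mueller glia, 4 of 5 leukocyte and 5 of 5 endothelial genes. The part of the fibroblast genes in the results below was not tested.

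The first question was whether these genes differ between vehicle and either dose. PSAT1 had the widest difference, with a mean 11.9-fold that of vehicle at 100 µg/ml and 10.7-fold at 250 µg/ml. PHGDH and ASNS lay about 2-fold above vehicle at both doses, with every treated array above every control. The folate enzyme genes lay nearer to vehicle, with wider differences at 100 than at 250 µg/ml. CBS was the exception, with a mean 1.75-fold below vehicle at 250 µg/ml. None of the 9 genes passed the test (limma with Benjamini-Hochberg adjustment over 14207 genes, threshold 0.05) at either dose.

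**Figure D1:**
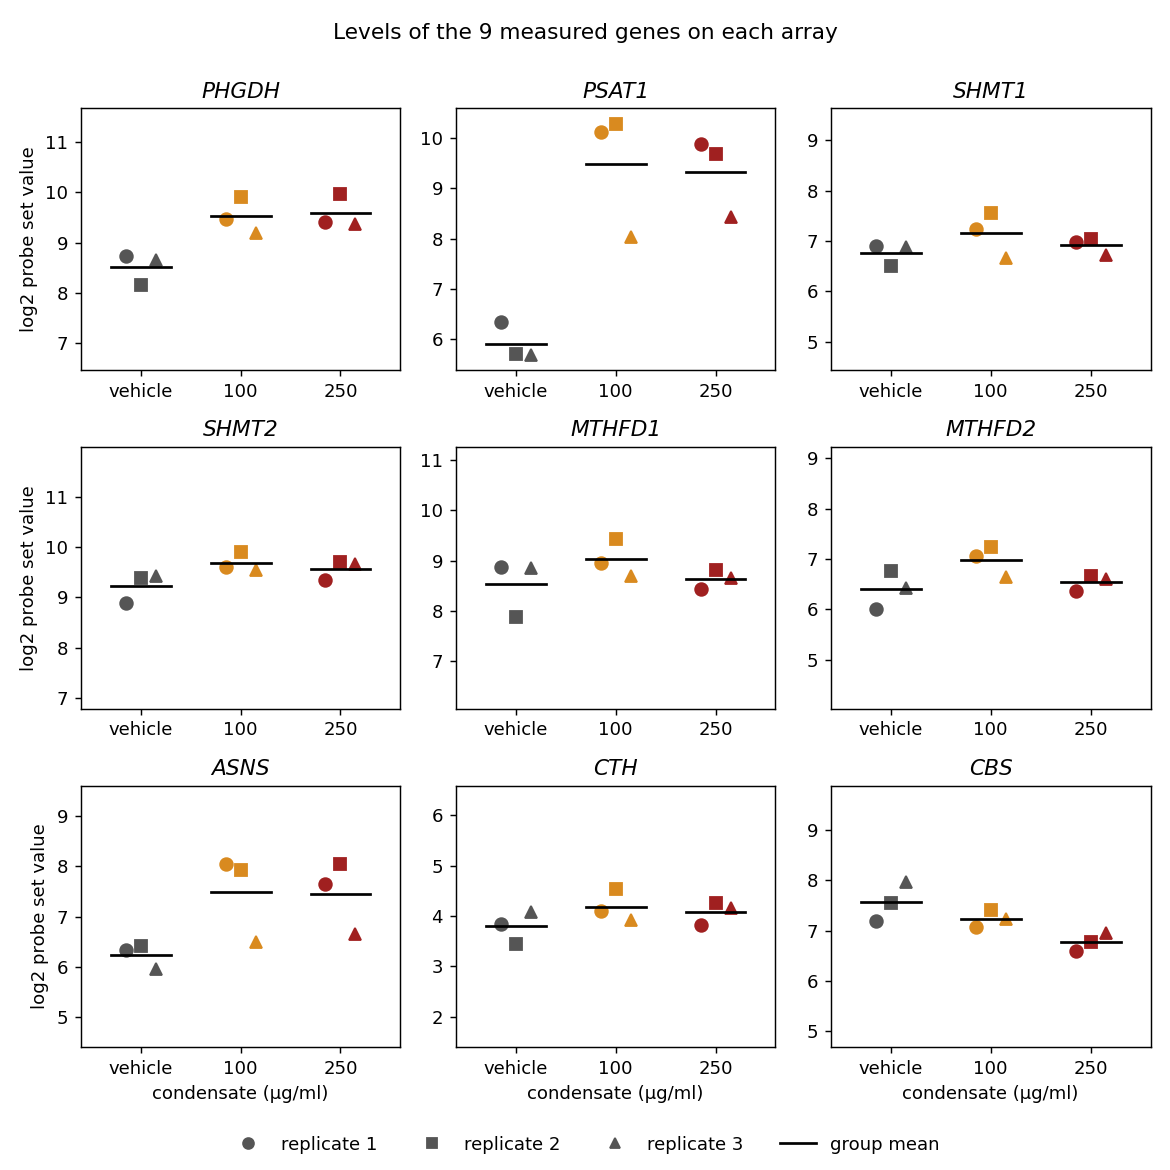
The log2 probe set value of each of the 9 measured genes (vertical axes, all spanning the same number of log2 units) on each array, by condensate dose in µg/ml (horizontal axes). Shapes give the replicate number and black lines the group means. PSAT1, PHGDH and ASNS lie above all 3 vehicle arrays at both doses, and the triangle of the dosed groups, replicate 3, is the lowest point for PSAT1 and ASNS.

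PHGDH encodes phosphoglycerate dehydrogenase, the first enzyme of serine synthesis. Its levels in the controls numbered 1 to 3 were 8.74, 8.16 and 8.65, at 100 µg/ml they were 9.47, 9.91 and 9.18, and at 250 µg/ml they were 9.41, 9.97 and 9.37. The lowest array at 100 µg/ml lay 0.45 above the highest control and the lowest at 250 µg/ml lay 0.64 above it. Control replicate 2 was the low one among the controls, and replicate 2 was the high one at both doses. The difference from vehicle was 1.01 ± 0.25 log2 units at 100 µg/ml (SE, n = 3 per group, 2.01-fold, limma adjusted p = 0.20) and 1.07 ± 0.25 at 250 µg/ml (2.10-fold, limma adjusted p = 0.0866).

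PSAT1 encodes phosphoserine aminotransferase, which takes the nitrogen for serine from glutamate. The controls stood at 6.34, 5.70 and 5.69, the arrays at 100 µg/ml at 10.13, 10.29 and 8.04, and those at 250 µg/ml at 9.89, 9.68 and 8.44. No dosed array came near the controls, since the lowest lay 1.70 above the highest control at 100 µg/ml and 2.09 above it at 250 µg/ml. Replicate 3 of each dose stood apart below the other 2. Set against the control mean, the arrays at 100 µg/ml were 18.6-, 20.7- and 4.38-fold higher, and those at 250 µg/ml 15.7-, 13.6- and 5.75-fold higher.

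The fitted difference of PSAT1 was 3.57 ± 0.61 at 100 µg/ml (SE, n = 3 per group, 95% interval 2.18 to 4.97, limma adjusted p = 0.13). For 250 µg/ml it was 3.42 ± 0.61 (95% interval 2.03 to 4.81, limma adjusted p = 0.0521). By size these were the second highest positive difference of the 14207 genes at 100 µg/ml and the third highest at 250 µg/ml. The range of PSAT1 from lowest to highest array was 0.65 for vehicle, 2.24 for the lower dose and 1.45 for the higher one.

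ASNS encodes asparagine synthetase, which makes asparagine from aspartate with nitrogen from glutamine. Its controls stood at 6.34, 6.42 and 5.96, the arrays at 100 µg/ml at 8.04, 7.93 and 6.50, and those at 250 µg/ml at 7.65, 8.04 and 6.65. Again replicate 3 of each dose was the low one, only 0.08 above the highest control at 100 µg/ml and 0.23 above it at 250 µg/ml. Against the control mean, replicates 1, 2 and 3 were 3.49-, 3.22- and 1.20-fold higher at 100 µg/ml and 2.66-, 3.49- and 1.33-fold higher at 250 µg/ml. The difference was 1.25 ± 0.46 at 100 µg/ml (SE, n = 3 per group, 2.38-fold, limma adjusted p = 0.285) and 1.21 ± 0.46 at 250 µg/ml (2.31-fold, limma adjusted p = 0.249).

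With the replicate number as a block in all 9 arrays, PSAT1 passed the test at 250 µg/ml (limma adjusted p = 0.024), although the numbers were not found to pair the dosed arrays with the controls. The arrays numbered 3 are the low dosed ones for PSAT1 and ASNS, so leaving them out widens the difference and narrows the spread by construction, and a pass in that fit adds no support. Without them at both doses, PSAT1 passed the test with a difference of 4.29 at 100 µg/ml (limma adjusted p = 0.00416) and 3.87 at 250 µg/ml (limma adjusted p = 0.00289). ASNS then passed too, with 1.75 (limma adjusted p = 0.0343) and 1.61 (limma adjusted p = 0.0255). Over the 18 other settings tried, the adjusted p of PSAT1 ran from 0.00416 to 0.455 at 100 µg/ml, with 3 past the threshold, and from 0.00289 to 0.203 at 250 µg/ml, with 8 past it. That of ASNS ran from 0.0343 to 0.675 and from 0.0255 to 0.598, with 1 past the threshold at each dose.

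The promoters of ASNS and PSAT1 are printed because these genes had the widest differences from vehicle and the same low arrays. Each window holds the 250 bases before a RefSeq gene start in GRCh38.p14, written 5′ to 3′ on the gene's strand. Capitals mark a match to TGATGNAA, the core of the element that ATF4 and C/EBP factors bind together.
ASNS: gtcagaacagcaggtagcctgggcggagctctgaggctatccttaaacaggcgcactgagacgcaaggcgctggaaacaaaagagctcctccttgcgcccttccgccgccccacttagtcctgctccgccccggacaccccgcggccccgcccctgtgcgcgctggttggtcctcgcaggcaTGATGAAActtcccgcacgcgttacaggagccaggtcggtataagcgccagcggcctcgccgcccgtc
PSAT1: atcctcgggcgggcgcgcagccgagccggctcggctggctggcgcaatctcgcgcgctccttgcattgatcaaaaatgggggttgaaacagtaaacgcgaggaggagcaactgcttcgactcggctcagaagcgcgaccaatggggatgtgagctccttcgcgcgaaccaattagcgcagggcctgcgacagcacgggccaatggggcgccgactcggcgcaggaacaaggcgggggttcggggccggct
The ASNS window is chr7:97872409-97872658 on the minus strand, and its match TGATGAAA begins 68 bases before the gene start. The PSAT1 window is chr9:78296875-78297124 on the plus strand and holds no match.

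Among the 10 genes, 8 had at least 1 window in the RefSeq table, 11 windows in all, and both strands were searched. The ASNS window above was the only 1 of the 11 with TGATGNAA, and the other ASNS window had none. Of 35116 windows of the same length in the table, 3.14% held that core. The core of the antioxidant response element, TGACNNNGC, which 10.9% of windows held, was found in 1 of 3 CBS windows, at chr21:43076378-43076627 on the minus strand, beginning 83 bases before the gene start. The E-box CACGTG, held by 6.34% of windows, was found 15 bases before the gene start of MTHFD1.

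SHMT2 encodes the mitochondrial serine hydroxymethyltransferase and SHMT1 the cytosolic one. SHMT2 stood at 8.88, 9.38 and 9.42 in the controls, at 9.60, 9.89 and 9.54 at 100 µg/ml, and at 9.34, 9.70 and 9.66 at 250 µg/ml. At 100 µg/ml its arrays lay above all controls by a gap of 0.12, and at 250 µg/ml replicate 1 lay within the control range. The difference was 0.45 ± 0.18 at 100 µg/ml (SE, n = 3 per group, limma adjusted p = 0.313) and 0.34 ± 0.18 at 250 µg/ml (limma adjusted p = 0.385). SHMT1 overlapped the controls at both doses, with differences of 0.39 ± 0.22 (limma adjusted p = 0.453) and 0.15 ± 0.22 (limma adjusted p = 0.768).

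MTHFD2 encodes the mitochondrial folate dehydrogenase and cyclohydrolase of growing cells. Its controls stood at 6.01, 6.76 and 6.43, the arrays at 100 µg/ml at 7.06, 7.24 and 6.65, and those at 250 µg/ml at 6.37, 6.66 and 6.59. Replicates 1 and 2 at 100 µg/ml were above all controls, replicate 3 was below control replicate 2, and all 3 arrays at 250 µg/ml lay within the control range. The difference was 0.58 ± 0.22 at 100 µg/ml (SE, n = 3 per group, limma adjusted p = 0.285) and 0.14 ± 0.22 at 250 µg/ml (limma adjusted p = 0.774).

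MTHFD1, the cytosolic enzyme with 3 folate activities, stood at 8.88, 7.88 and 8.86 in the controls, so that control replicate 2 was about 1 log2 unit below the other 2. At 100 µg/ml it stood at 8.96, 9.44 and 8.69 and at 250 µg/ml at 8.44, 8.82 and 8.66. The dosed arrays overlapped the controls at both doses. The difference was 0.49 ± 0.29 at 100 µg/ml (SE, n = 3 per group, limma adjusted p = 0.468) and 0.10 ± 0.29 at 250 µg/ml (limma adjusted p = 0.887). Without control replicate 2 the latter was -0.23, and without control replicate 1 that of MTHFD2 at 250 µg/ml was -0.05.

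CBS encodes cystathionine beta-synthase, which joins serine to homocysteine. Its levels were 7.20, 7.55 and 7.98 in the controls, 7.07, 7.42 and 7.22 at 100 µg/ml, and 6.59, 6.77 and 6.95 at 250 µg/ml. The arrays at 100 µg/ml overlapped the controls, while all 3 at 250 µg/ml lay below both other groups, by 0.25 below the lowest control and by 0.13 below the lowest array at 100 µg/ml. The difference from vehicle was -0.34 ± 0.20 at 100 µg/ml (SE, n = 3 per group, limma adjusted p = 0.461) and -0.81 ± 0.20 at 250 µg/ml (limma adjusted p = 0.103). With quantile normalization CBS passed the test at 250 µg/ml, at -0.88 (limma adjusted p = 0.0478), where its adjusted p over 18 other settings ran up to 0.318.

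CTH encodes cystathionine gamma-lyase, which releases cysteine from the product of CBS. It stood at 3.84, 3.45 and 4.09 in the controls, at 4.10, 4.53 and 3.92 at 100 µg/ml, and at 3.82, 4.25 and 4.16 at 250 µg/ml. The groups overlapped, and 8 of its 9 values lay below the median of their array. The differences were 0.38 ± 0.21 at 100 µg/ml (SE, n = 3 per group, limma adjusted p = 0.439) and 0.28 ± 0.21 at 250 µg/ml (limma adjusted p = 0.537).

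**Figure D2:**
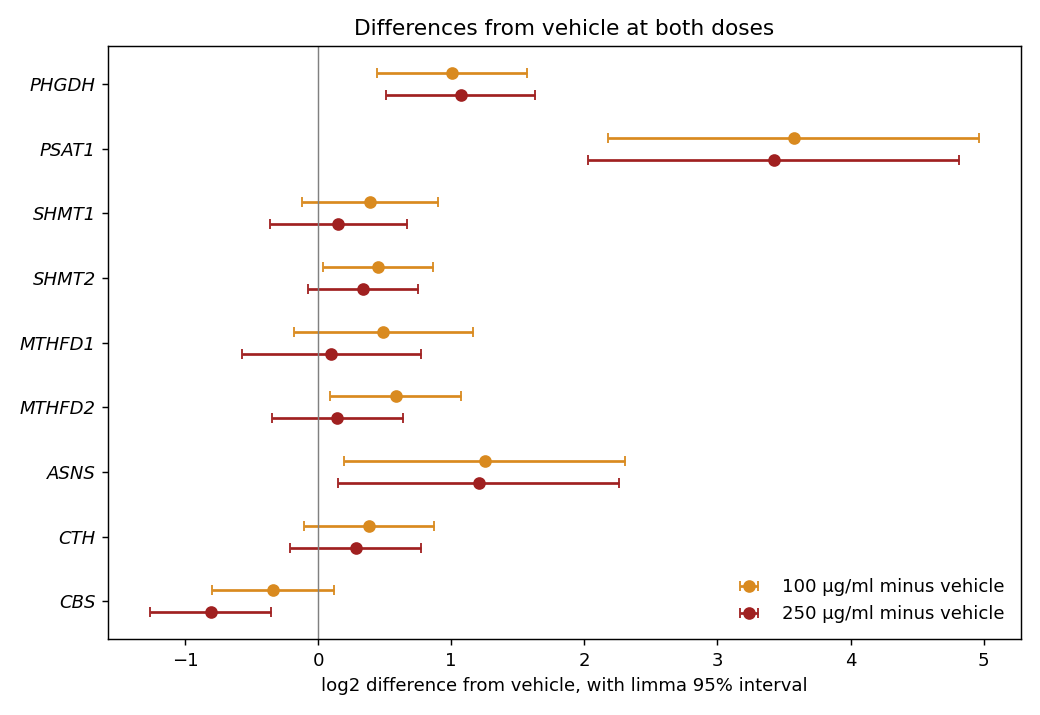
The log2 difference of each of the 9 genes from vehicle (horizontal axis) at 100 µg/ml and at 250 µg/ml condensate. Points are differences of group means of 3 arrays and bars are limma's 95% intervals, which are not adjusted for the number of genes. PSAT1 lies at 3.57 and 3.42, and CBS is the only gene with both points below 0.

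As a group, 8 of the 9 genes had a mean above vehicle at 100 µg/ml and 8 of 9 at 250 µg/ml, CBS being the one below at each dose. The median difference of the 9 was 0.49 at 100 µg/ml, where that of all 14207 genes was -0.05, and 0.28 at 250 µg/ml, where that of all genes was -0.04. Of all genes, 40.8% were above vehicle at the lower dose and 42.7% at the higher. Both comparisons share the 3 controls.

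Against the 14207 genes, the counts at 100 µg/ml were as follows. None of the 9 genes passed the threshold, as 0.0633% of all genes did. At an unadjusted limma p under 0.05, 5 of 9 were higher (PHGDH, PSAT1, SHMT2, MTHFD2 and ASNS), which was so for 7% of all genes, and 0 of 9 were lower, which was so for 7.65%. The 3 dosed arrays lay above all controls for 4 of 9 genes, against 6.41% of all genes, and below them for 0 of 9, against 11.9%. Replicate 3 of this dose was the lowest array for 8 of the 9 genes, against 42.7% of all genes, so leaving it out raises the count by construction. Without it, 8 of 9 had both remaining arrays above all controls, against 13.2% of all genes, which adds no support. Without replicate 1 or replicate 2 of this dose the count stayed at 4 of 9, against 9.01% and 7.94% of all genes. The count at an unadjusted limma p under 0.05, in either direction, was 2 of 9 without replicate 1 of this dose and 2 of 9 without replicate 2. The share of all genes in those fits was not counted, so these counts cannot be set against it.

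At 250 µg/ml none of the 9 genes passed the threshold, as 0.549% of all genes did. At an unadjusted limma p under 0.05, 3 of 9 were higher (PHGDH, PSAT1 and ASNS), against 8.74% of all genes, and 1 of 9, CBS, was lower, against 7.9%. The dosed arrays lay above all controls for the same 3 genes, against 8.61% of all genes, and below them for CBS, against 14.3%.

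The second question was whether the doses differ from each other. Of the 9 genes, 8 had a lower mean at 250 than at 100 µg/ml and PHGDH a higher one, where 54.4% of all genes had a higher one. The median of the 9 was -0.15, where that of all genes was 0.01. None of the 9 passed the threshold, as 0% of all genes did. CBS had the widest difference, at -0.47 ± 0.20 (SE, limma adjusted p = 1.0). It was the 1 gene of 9 lower at an unadjusted p under 0.05, against 0.859% of all genes, and the 1 gene whose arrays all lay below the other dose, against 2.86%. In the other direction the counts were 0 of 9 at an unadjusted p under 0.05, against 0.985% of all genes, and 0 of 9 for arrays all above, against 3.32%.

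PSAT1, PHGDH and ASNS differed little between the doses, with 250 minus 100 µg/ml at -0.15, 0.07 and -0.04. Their 95% intervals ran from -1.54 to 1.24, from -0.50 to 0.63 and from -1.10 to 1.01, so a difference of 2-fold in either direction lies within those of PSAT1 and ASNS, and one of 1.5-fold upward within that of PHGDH.

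Arrays of the same number at both doses deviated together over all genes, so the doses were also set against each other within a number. The 250 minus 100 µg/ml difference of CBS was negative within each number, at -0.48, -0.65 and -0.28. That of MTHFD2 was negative too, at -0.69, -0.58 and -0.05, and so was that of MTHFD1, at -0.52, -0.62 and -0.03. These were 3 of 9 genes lower within all 3 numbers, against 13.6% of all genes. The other 6 genes had both signs among the numbers, and PSAT1 had values of -0.24, -0.61 and 0.39. With the number as a block in the 6 dosed arrays, the same 3 of 9 were lower at an unadjusted limma p under 0.05, against 5.4% of all genes. None of the 9, and none of all genes, passed after adjustment, with adjusted p of 0.241 for CBS, 0.335 for MTHFD2 and 0.365 for MTHFD1.

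**Figure D3:**
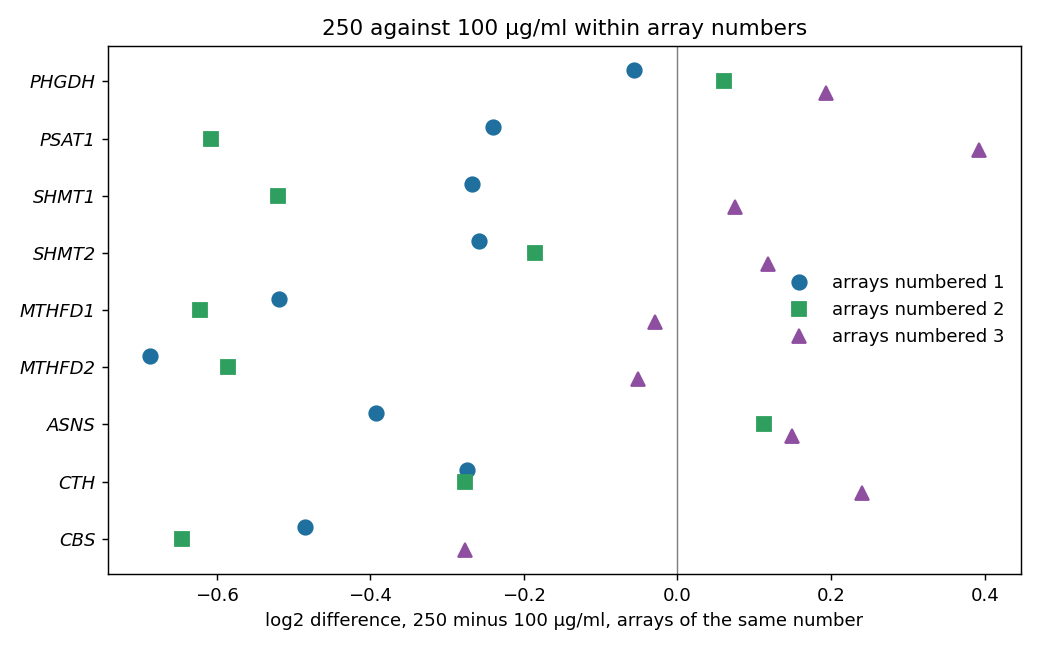
The log2 difference of 250 minus 100 µg/ml (horizontal axis) for each of the 9 genes, computed between arrays of the same number. Circles, squares and triangles are the arrays numbered 1, 2 and 3. CBS, MTHFD1 and MTHFD2 lie left of 0 for all 3 numbers, while PSAT1 runs from -0.61 to 0.39.

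The order of the arrays was alike across most of the 9 genes at 100 µg/ml and split them at 250 µg/ml. At 100 µg/ml, replicate 2 was the highest array for 8 of the 9 genes, as it was for 23.6% of all genes, and replicate 3 was the lowest for 8 of 9, as for 42.7% of all genes. At 250 µg/ml, replicate 2 was the highest for 7 of 9 (24.1% of all genes), while replicate 1 was the lowest for 5 (30.6%) and replicate 3 for the 4 genes PHGDH, PSAT1, SHMT1 and ASNS (34.6%). In the controls no array led, with replicates 1, 2 and 3 highest for 4, 2 and 3 genes.

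Other lists were followed on the same arrays by their mean level relative to each gene's average over the 9 arrays. The 9 genes stood at -0.49, -0.63 and -0.40 in the controls, at 0.46, 0.74 and -0.13 at 100 µg/ml, and at 0.11, 0.38 and -0.04 at 250 µg/ml. DNA replication genes, 23 measured, stood at -0.26, -1.14 and -0.05, then at 0.67, 0.90 and -0.08, and then at 0.08, 0.11 and -0.23. The mean of that list too was lowest on replicate 3 of each dose. At 250 µg/ml, however, the lowest array was replicate 3 for 4 of the 9 genes and replicate 1 for 5. The DNA replication list was above vehicle for 23 of 23 genes at 100 µg/ml, against 40.8% of all genes. Its median there was 0.98, though 0 of 23 passed the threshold. At 250 µg/ml it was above vehicle for 22 of 23 genes, against 42.7% of all genes, with a median of 0.45. Between the doses 23 of 23 replication genes were lower at 250 µg/ml, with a median of -0.50, where 54.4% of all genes were higher. None of the 23 passed the threshold in these comparisons either. The part of DNA replication in the levels of the 9 genes was not tested.

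**Figure D4:**
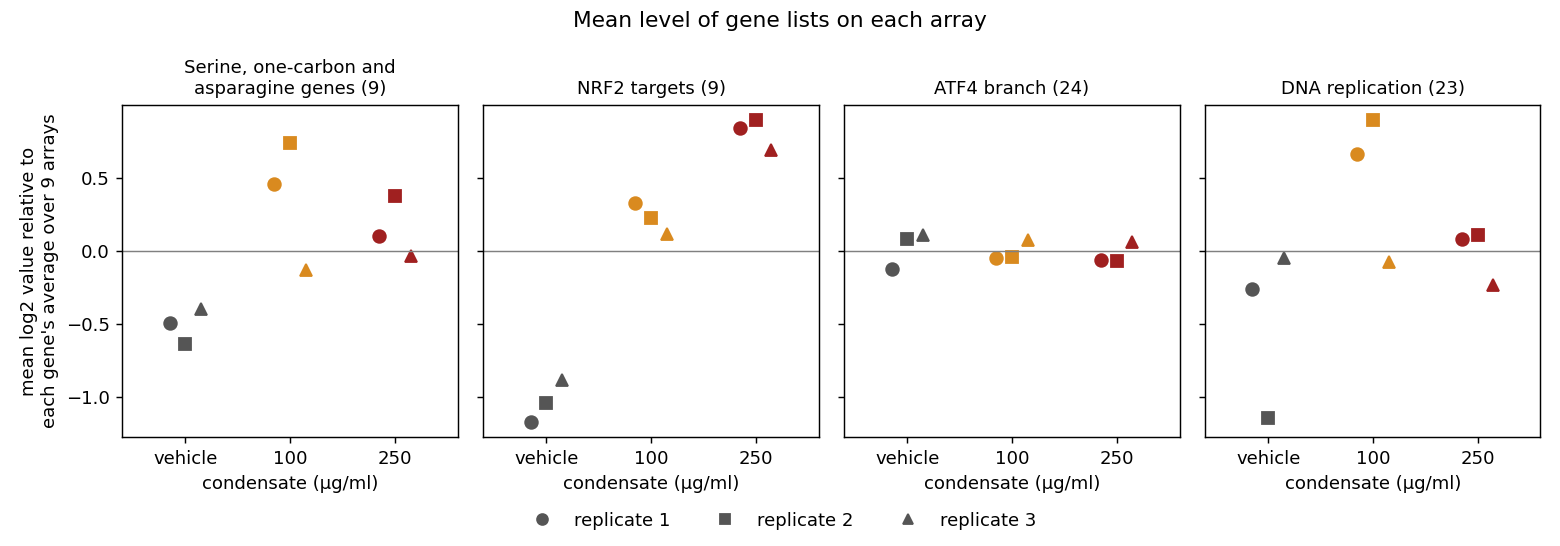
The mean log2 level of 4 gene lists on each array, relative to each gene's average over the 9 arrays (vertical axis), by condensate dose in µg/ml (horizontal axis), with the number of measured genes in brackets. Shapes give the replicate number. The list means of the 9 synthesis genes and of DNA replication are lowest on replicate 3 of each dose. The NRF2 targets are higher at 250 than at 100 µg/ml on every array, and the ATF4 branch list stays between -0.12 and 0.11.

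The ATF4 branch outside the 9 genes was followed through a list of its kinases, factors and some other targets. That list is not a full set of ATF4 targets, and its values cover only the genes on it. Among those it leaves out are the carrier genes SLC7A11, SLC3A2 and SLC1A4, also known ATF4 targets, which are described with the transporters. Of 24 measured, 0 passed the threshold at either dose, 11 were above vehicle at 100 µg/ml and 12 at 250 µg/ml, and their median difference was -0.02 at both. ATF4 itself, whose protein is mainly set at translation, had a difference of -0.25 ± 0.24 at 100 µg/ml (SE, n = 3 per group, limma adjusted p = 0.649) and -0.10 ± 0.24 at 250 µg/ml (limma adjusted p = 0.852). The pro-apoptotic factor gene DDIT3 (CHOP) stood at 4.74, 5.77 and 6.35 with vehicle, at 3.97, 4.61 and 5.10 with the lower dose and at 3.86, 4.42 and 5.13 with the higher one. Its groups overlapped, with differences of -1.06 ± 0.48 (limma adjusted p = 0.354) and -1.15 ± 0.48 (limma adjusted p = 0.278). The pseudokinase gene TRIB3 had differences of 0.01 and 0.02 with a standard error of 0.11. EIF2AK4, which encodes the amino acid-sensing kinase GCN2, lay above all controls at both doses, by 0.71 ± 0.21 and 0.78 ± 0.21 (limma adjusted p = 0.219 and 0.122). DDIT4, a stress-induced inhibitor of mTORC1, was at -0.89 ± 0.41 at 250 µg/ml.

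NRF2 targets, which serve glutathione and NADPH supply, were called at both doses. Of 9 measured, 2 rose at 100 µg/ml and 5 at 250 µg/ml, and their median difference was 0.85 and 1.57. HMOX1, the haem oxygenase gene, rose by 2.46 ± 0.29 and 4.23 ± 0.29 (SE, n = 3 per group, limma adjusted p = 0.0485 and 0.00418). With the higher dose GCLM, of glutathione synthesis, rose by 2.45, SRXN1, of peroxiredoxin repair, by 1.57 and ME1, of NADPH supply, by 1.62 (limma adjusted p = 0.0197, 0.0125 and 0.0152). The list was lowest on replicate 3 of each dose as well, at 0.11 and 0.69, but all dosed arrays were above the controls, of which the highest stood at -0.88. Of 9 fits that each left out 1 array, 7 ended the call of HMOX1 at 100 µg/ml (all but those without control replicate 3 or replicate 3 of that dose, limma adjusted p up to 0.309), and none ended it at 250 µg/ml. Fitted on only the 6 arrays compared, HMOX1 lost its call at 100 µg/ml (limma adjusted p = 0.20) and kept it at the higher dose (limma adjusted p = 0.00301), while GCLM, SRXN1 and ME1 lost their calls (limma adjusted p = 0.0903 each). These 3 also did not pass without replicate 2 at 250 µg/ml (limma adjusted p = 0.124, 0.0976 and 0.103), and GCLM also not without replicate 1 of that dose or replicate 2 at 100 µg/ml.

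Of transporters of serine, asparagine, glycine or cystine, 2 of 13 rose at 100 µg/ml and 3 of 13 at 250 µg/ml. SLC1A4, a carrier of serine and other small neutral amino acids, stood at 5.09, 4.82 and 4.68 in the controls, at 6.03, 5.87 and 5.96 at 100 µg/ml and at 5.73, 6.01 and 5.91 at 250 µg/ml. Replicate 3 was not low here. SLC1A4 rose by 1.09 ± 0.13 at 100 µg/ml (SE, n = 3 per group, limma adjusted p = 0.0485) and by 1.02 ± 0.13 at 250 µg/ml (limma adjusted p = 0.0202). SLC7A11, the cystine carrier, rose by 3.71 ± 0.38 and 4.02 ± 0.38 (limma adjusted p = 0.0475 and 0.00889). SLC3A2, the chain that pairs with it, had a difference of 0.74 ± 0.13 at 100 µg/ml (limma adjusted p = 0.13) and rose by 1.01 ± 0.13 at 250 µg/ml (limma adjusted p = 0.0202). SLC7A11 is counted among the NRF2 targets too. On only the 6 arrays compared, SLC1A4 and SLC7A11 lost their calls at 100 µg/ml (limma adjusted p = 0.20 each), and SLC1A4, SLC3A2 and SLC7A11 lost theirs at 250 µg/ml (limma adjusted p = 0.0936, 0.0903 and 0.0718). At 100 µg/ml, 8 of 9 fits without 1 array ended the call of SLC1A4 (all but that without control replicate 3) and 7 that of SLC7A11 (all but those without control replicates 2 or 3), with limma adjusted p up to 0.309 and differences of 1.00 to 1.20 and 3.24 to 4.06. For the higher dose SLC1A4 lost its call in 5 such fits (without control replicate 2, replicates 1 and 2 at 100 µg/ml and replicates 1 and 2 at 250 µg/ml), SLC3A2 in 3 (without replicate 1 at 100 µg/ml and replicates 1 and 2 at 250 µg/ml) and SLC7A11 in 1 (without replicate 2 at 250 µg/ml), with limma adjusted p up to 0.125, 0.125 and 0.0716.

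Of enzymes around glycine, 0 of 6 passed the threshold at either dose. GLDC, the decarboxylase of the mitochondrial glycine cleavage system, stood at 3.30, 3.77 and 3.43 in the controls, at 4.11, 4.60 and 4.23 at 100 µg/ml and at 4.68, 4.29 and 4.29 at 250 µg/ml. Its dosed arrays lay above every control, with differences of 0.81 ± 0.18 (SE, n = 3 per group, limma adjusted p = 0.182) and 0.92 ± 0.18 (limma adjusted p = 0.0656). GCAT, which splits the threonine product to glycine, lay above all controls as well, by 0.40 ± 0.15 and 0.46 ± 0.15. SFXN3, a relative of the mitochondrial serine carrier, was at -0.40 ± 0.22 at 250 µg/ml (limma adjusted p = 0.394). Its arrays lay below all controls only narrowly, with replicate 3 of that dose at 7.652 and control replicate 1 at 7.658. Of all genes, 14.3% had arrays below all controls at that dose.

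Of the other folate genes, 0 of 12 passed the threshold at either dose, and their median was 0.13 at 100 µg/ml and 0.10 at 250 µg/ml. ATIC, of purine synthesis, had a difference of 0.45 ± 0.17 at 250 µg/ml with all arrays above the controls (limma adjusted p = 0.238). MTFMT, which formylates the mitochondrial initiator tRNA, and GGH, which trims folate's glutamate tail, had 0.42 ± 0.26 and 0.32 ± 0.53. TYMS, of thymidylate synthesis, had 0.52 ± 0.27 at 100 µg/ml and -0.23 ± 0.27 at 250 µg/ml, and its arrays overlapped the controls.

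In the methionine cycle and sulfur amino acid list, 0 of 16 passed the threshold at either dose. SQOR, the mitochondrial enzyme that oxidises hydrogen sulfide, lay above all controls by 0.98 ± 0.30 at 100 µg/ml and 1.01 ± 0.30 at 250 µg/ml (SE, n = 3 per group, limma adjusted p = 0.224 and 0.157). The sulfite oxidase gene SUOX had a difference of 0.59 ± 0.19 at 250 µg/ml with all arrays above the controls. MPST, an enzyme of hydrogen sulfide production, had -0.76 ± 0.34 at that dose with overlap.

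Among aspartate, glutamate and proline enzymes 0 of 9 passed the threshold, and among tRNA charging enzymes 0 of 3. ASRGL1, which breaks down asparagine and so runs opposite to ASNS, lay above all controls by 0.92 ± 0.19 at 100 µg/ml and 0.68 ± 0.19 at 250 µg/ml (SE, n = 3 per group, limma adjusted p = 0.154 and 0.138). GOT2, the mitochondrial aspartate aminotransferase, had 0.81 ± 0.28 at 250 µg/ml and OAT, ornithine aminotransferase, 0.34 ± 0.23, both with overlap. NARS1, which charges the asparagine tRNA, had 0.60 ± 0.24 at that dose, its mitochondrial form NARS2 0.41 ± 0.24 and SARS1, for serine, -0.15 ± 0.15. For NARS1, replicate 3 of that dose stood at 10.16, within the control range of 9.90 to 10.38, and the other 2 above it.

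The genes whose pattern over the 9 arrays was most like that of a member were taken among 5027 genes with an SD of at least 0.3, by Pearson's r. These values describe arrays in 3 groups that share the dose difference, so r over the 6 dosed arrays is given beside each. ASNS was closest to YARS1 (0.994 over 9 arrays, 0.993 over 6), ITGA2 (0.966 and 0.994) and EXOG (0.964 and 0.954). PSAT1 was closest to VDR (0.974 and 0.938), PRPF4 (0.970 and 0.943) and SSR3 (0.961 and 0.834). PHGDH was closest to USP5 (0.978 and 0.942), WNK3 (0.978 and 0.904) and TTF2 (0.965 and 0.875). MTHFD2 was closest to RMI1 (0.956 and 0.930), TMEM107 (0.940 and 0.942) and ACTR6 (0.933 and 0.948), and CTH to MND1 (0.913 and 0.823), H2BC15 (0.912 and 0.838) and EVA1C (0.904 and 0.878).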

How the data were processed

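RNA of 9 ARPE-19 samples was labelled as whole-transcript sense-strand targets for an Affymetrix exon array, per the labels' protocols. The authors deposited log2 values, 1 per transcript-level probe set. Partek, RMA and the build hg18 are named per the submitters' processing notes, with versions, settings and filters not given in the sources used here. Background adjustment and joint normalization, as in RMA, compress folds of dim genes. No detection calls were used, so low values cannot separate weak from absent expression.

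The table held 17629 probe sets, of which 14378 name 1 gene in the platform's annotation, 2405 several and 846 none. Current symbols came from a RefSeq table (GRCh38.p14), matched on gene number, in which 28 probe sets had no entry. For 169 genes with several probe sets the one with the highest mean was used, leaving 14207 genes.

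Differences were fitted in R 4.3.3 with limma 3.58.1 (lmFit and eBayes), 9 arrays together and a mean for each group, and p-values were adjusted by Benjamini-Hochberg over 14207 genes with a threshold of 0.05. The fits were tested on simulated data. The number of arrays limits the precision. Same-numbered arrays of both doses correlated in their deviations from group means (0.603, 0.443 and 0.682), a pairing that comes from the data, while with the controls the correlations ran from -0.142 to 0.265 and were not taken as pairing. The members, gene lists and settings were chosen with earlier results of these data known.

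Besides the members, the text names the genes of each list past the threshold and, to make up 3 per list, those with the widest difference at 250 µg/ml. The DNA replication list is an exception, given only as a list with none of its genes named. ATF4, DDIT3, TRIB3, SLC7A11 and TYMS are named whatever their values, and so are the 3 genes most like each of 5 members. NFE2L2, which that rule also takes, was not measured alone, and 1 other gene that it takes is not reported here. Alternatives were centring on array medians, quantile normalization, no dim genes (mean below the 40th percentile, 3.834, leaving 8524 genes), the mean over probe sets, only the arrays compared, array weights, trended and robust moderation, a replicate block and leaving out arrays.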

Additional observations from a re-analysis of the deposited data

How the results depend on the processing

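At 100 µg/ml against vehicle, 0 members passed the threshold in most settings, leave-one-out fits included, 1 without dim genes (PSAT1, with fewer genes tested), 1 with array weights (PSAT1) and 2 when the arrays numbered 3 at both doses were left out. At 250 µg/ml, 1 passed with median centring, without dim genes, with array weights, with trended and robust moderation and with the replicate block (PSAT1 each time, adjusted p = 0.024 with the block), 1 with quantile normalization (CBS) and 2 without the arrays numbered 3. Leaving out single arrays gave 0 to 1, with PSAT1 past the threshold without replicate 3 of either dose. Between the doses 0 passed in any setting, the replicate block included, and the block changed no other call of a member. Apart from the settings named, the cause of these differences was not tested. Members whose arrays did not overlap with vehicle numbered 4 at 100 µg/ml, where 6.41% of all genes lay above and 11.9% below. With single arrays left out they numbered 4 to 8, against 21.3% to 33.6% of all genes. The share was 33.6% where they numbered 4 without replicate 1 of that dose. Without the arrays numbered 3 they numbered 8, against 33.2%. At 250 µg/ml 3 lay above and 1 below the controls, against 8.61% and 14.3%. With single arrays left out there, 4 to 6 did not overlap, against 26.8% to 39.0%. Between the doses 1 member did not overlap, against 3.32% of all genes above and 2.86% below. With single arrays left out the members numbered 1 to 5, against 10.1% to 25.8%, with 5 against 25.8% without replicate 3 at 100 µg/ml. Without the arrays numbered 3 they numbered 5, against 37.9%.

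Some small differences changed sign when 1 array was left out. Against vehicle at 250 µg/ml the ranges were -0.23 to 0.27 for MTHFD1, -0.051 to 0.32 for MTHFD2, -0.37 to 0.12 for ATF4, -0.037 to 0.58 for GGH, -0.49 to 0.028 for TYMS and -0.083 to 0.10 for TRIB3. For TRIB3 at 100 µg/ml it was -0.026 to 0.046. Between the doses they were -0.13 to 0.26 for PHGDH, -0.87 to 0.30 for PSAT1, -0.18 to 0.0055 for SHMT2, -0.54 to 0.36 for ASNS and -0.24 to 0.070 for CTH. With array weights PHGDH between the doses was -0.11, and TRIB3 was -0.038 at 100 µg/ml and -0.013 at 250 µg/ml. TRIB3 was also -0.014 with median centring at 250 µg/ml, and -0.0083 and -0.083 at the lower and higher dose without the arrays numbered 3. The counts of all genes called ran from 1 to 73 at 100 µg/ml (1 on the 6 arrays compared, 73 with array weights) and from 1 to 296 at 250 µg/ml (1 on the 6 arrays compared, 296 without control replicate 3).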
